A study of Mus musculus with 33 samples.

Results

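After 60 min of heat shock, mouse embryonic fibroblasts carried 350 HSF1 regions that lay at the end of a gene and that had no counterpart at 12 min or before heat shock. They are called late gene-end regions here. A region was a group of overlapping peaks of the 2 antibodies CS and MM in the wild type 60 min peak lists. It was late where it overlapped no such region at 12 min and no peak of either antibody in unstressed cells, and it was at a gene end where its summit lay within 1 kb of either end of an annotated gene. The 350 regions were 15.8% of the 2221 late regions (95% exact interval 14.3% to 17.3%) and came from 3455 regions at 60 min in all. The regions were chosen by their wild type CS and MM peaks, so the tags and folds of those peaks are given as a description.

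The study mapped HSF1 by chromatin immunoprecipitation and sequencing (ChIP-seq) in mouse embryonic fibroblasts of the 129Sv.BALB/c background. HSF1KO (HSF1-/-) and wild type cells were each examined unstressed, at 12 min and at 60 min of heat shock with both antibodies. The serum response factor SRF, known from actin and early response genes, was mapped only in the wild type. Each genotype, time and antibody gave a single peak list, made in wild type cells from 2 merged replicates per the file headers, so no value below has a replicate error and no test compares conditions. Intervals of shares are exact (Clopper-Pearson) and cover counting error only.

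HSF1 is the main transcription factor of the heat shock response. In stressed cells it forms trimers that bind heat shock elements, arrays of short GAA units in alternating orientation, and it is best known for driving chaperone genes. In fibroblasts, heat also reaches genes of the cytoskeleton, of early stress signalling and of transcription and translation.

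The HSF1KO 60 min libraries held 8.97 M (mega) tags for CS and 7.39 M for MM, and were called with no control library. The wild type 60 min libraries held 19.6 M tags for CS and 14.0 M for MM, against 26.3 and 17.7 M at 12 min. The IgG library behind the 60 min calls held 9.23 M tags. Both antibodies were called against that same IgG library. The 60 min lists held 4773 CS and 4614 MM peaks, against 1781 and 1927 at 12 min, and the estimated fragment length was longer at 60 min, at 161 and 114 bp against 128 and 107 bp. The unstressed wild type libraries held 25.2 M tags for CS and 15.9 M for MM, with 180 and 449 peaks. Their estimated fragment lengths were 45 and 40 bp, and that of both HSF1KO 60 min libraries was 38 bp, at a tag size of 36 bp. The part of these library differences in the number of late regions was not tested.

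The element that HSF1 is known to bind could be looked for where a summit fell in a RefSeq promoter window, which runs from 250 bases before a gene's start to 50 after it (GRCm38.p6, the same primary assembly as mm10). Of the 350 late gene-end regions, 68 had their summit in such a window, and 84 windows held 1 of these summits, since a summit can lie in several. A run of 3 units was searched as GAA, TTC and GAA, or as TTC, GAA and TTC, with 2 bases of any kind between neighbouring units. These are each other's reverse complement, so both strands are covered. It was found in a window of 14 of these 68 regions. The first 2 sequences printed are the matches at members named by rule, with 8 bases on each side; the next 7 are the first by fold rank of the members that could be shown when limited to bases before the start and outside annotated genes, chosen after their values were seen. Capitals mark the run of units, and every sequence reads 5′ to 3′ on the strand of the gene named.

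Deaf1, a transcription factor gene with an alternative start beside Tmem80, had its match at chr7:141327827-141327855 on the minus strand, 1 bp from the summit. Its window held another 3-unit match 42 bp from the summit, which is not printed. Rps18, a small-subunit ribosomal protein gene, had its match at chr17:33955860-33955888 on the minus strand, 9 bp from the summit. The others were Creb3l3, a membrane-bound transcription factor gene known from liver, at chr10:81098873-81098971 on the minus strand; Sec62, a component of the endoplasmic reticulum translocon, at chr3:30792628-30792760 on the plus strand; and Plscr4, a phospholipid scramblase gene, at chr9:92457260-92457371 on the plus strand. The remaining windows belong to genes with no assigned role: Gm31314 at chr5:119527964-119528096, Gm36709 at chr11:108381122-108381207 and Gm32652 at chr1:164899693-164899825, all on the minus strand, and Gm38873 at chr6:112390289-112390395 on the plus strand.
Deaf1: cgtaagctTTCGGGAAGCTTCgggaccat
Rps18: caactctgTTCCGGAACCTTCgctccgcg
Creb3l3: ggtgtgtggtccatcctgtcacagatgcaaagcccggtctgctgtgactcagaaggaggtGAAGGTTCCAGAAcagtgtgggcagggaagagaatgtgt
Sec62: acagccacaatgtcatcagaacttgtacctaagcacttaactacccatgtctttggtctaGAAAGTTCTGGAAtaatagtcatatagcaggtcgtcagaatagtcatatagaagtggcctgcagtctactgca
Gm31314: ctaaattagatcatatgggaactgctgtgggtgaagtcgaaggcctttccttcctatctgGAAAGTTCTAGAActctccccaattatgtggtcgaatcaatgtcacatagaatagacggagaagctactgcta
Gm36709: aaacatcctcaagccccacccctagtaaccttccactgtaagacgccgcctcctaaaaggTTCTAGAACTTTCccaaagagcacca
Gm38873: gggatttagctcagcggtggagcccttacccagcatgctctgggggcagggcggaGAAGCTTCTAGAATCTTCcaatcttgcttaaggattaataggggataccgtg
Gm32652: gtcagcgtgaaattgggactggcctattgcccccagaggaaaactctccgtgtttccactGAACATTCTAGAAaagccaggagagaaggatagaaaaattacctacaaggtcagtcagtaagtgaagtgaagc
Plscr4: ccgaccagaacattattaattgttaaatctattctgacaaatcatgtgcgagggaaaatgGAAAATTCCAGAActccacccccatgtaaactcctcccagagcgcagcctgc

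In these 9 sequences the centre of the element lay 1 to 27 bp from the summit of the region. Gm38873 had the longest run of the 68 regions, with 4 units. Other members had no run of even 2 units in their window, searched as GAANNTTC or TTCNNGAA, each its own reverse complement. A pair is shown for contrast, with no capitals because neither holds a match. It has the most CS tags, 161 and 151, of the members at protein-coding genes that lack the run and could be shown under the same limits; Col5a1 and the noncoding 4930413E20Rik also lacked it, with more tags. The pair is Ywhae, an adaptor that binds phosphorylated proteins, at chr11:75732738-75732870 on the plus strand, and Atp5pb, a subunit of the mitochondrial ATP synthase, at chr3:105959264-105959384 on the minus strand. G and C made up 75.2% of the Ywhae stretch and 58.7% of the Atp5pb stretch. Both regions also overlapped an HSF1KO peak, of 4 CS tags at 12 min for Ywhae and 6 MM tags in unstressed cells for Atp5pb.
Ywhae: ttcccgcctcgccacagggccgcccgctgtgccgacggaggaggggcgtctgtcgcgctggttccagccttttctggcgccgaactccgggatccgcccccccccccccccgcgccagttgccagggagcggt
Atp5pb: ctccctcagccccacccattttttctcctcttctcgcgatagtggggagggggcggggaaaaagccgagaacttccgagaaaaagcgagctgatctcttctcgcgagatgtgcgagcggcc

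The strongest late gene-end regions were not at chaperone genes. Members at protein-coding genes were ordered by the mean of their CS and MM ranks of fold enrichment, the authors' ratio of tags in a peak to its background. First came Dscaml1, a neuronal cell adhesion gene, where the region at chr9:45427826-45429024 had 271 CS and 198 MM tags and folds of 136 and 112. Its summit lay 666 bp from a gene end whose side is not known. Next was Prtn3, a serine protease of neutrophil granules, where the region at chr10:79882445-79883886 had 296 CS and 197 MM tags, folds of 97.3 and 93.9, and a summit 109 bp from the 3′ end. Both genes are known from other cell types, and both regions were among the strongest of the 350 with either antibody.

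Eif2s2 encodes the beta subunit of the initiation factor that brings the first transfer RNA to the ribosome. Its late region at chr2:154891932-154894144 had 292 CS and 167 MM tags and folds of 126 and 61.6, with the summit 693 bp from the gene start. Sec31b, of the family of outer coat proteins of vesicles leaving the endoplasmic reticulum, had 119 CS and 56 MM tags, 885 bp from its start. Coq7, an enzyme of ubiquinone synthesis, had 109 and 73 tags, 857 bp from its 3′ end, and Mrm2, a methyltransferase of mitochondrial ribosomal RNA, had 145 and 89 tags, 972 bp from its 3′ end. These 4 genes act in translation, secretion and mitochondria, and in each of them the summit was at least 693 bp from the end.

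The region at Tmem80, a membrane protein gene, which also covers the alternative start of Deaf1, had 177 CS and 165 MM tags and folds of 60.0 and 62.4, and held the element printed above. Gm38999 had 85 CS and 41 MM tags 6 bp from its start, with a 2-unit but no 3-unit run in the window. Gm11563 had the most CS tags of the 350 regions, 584 against 202 for MM, with folds of 133 and 40.9. Its CS and MM summits lay 712 bp apart in a region of 3075 bp, against a median of 25 bp over the late regions. No other region in the plot of named genes had as wide a gap between its CS and MM tags. Igfbp3, which binds insulin-like growth factors, had 83 and 40 tags and folds of 62.9 and 51.5. Des, the intermediate filament protein of muscle, had 109 and 57 tags and folds of 77.0 and 46.8, and Ccdc110 had 193 and 138 tags and folds of 65.9 and 49.4.

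**Figure D1:**
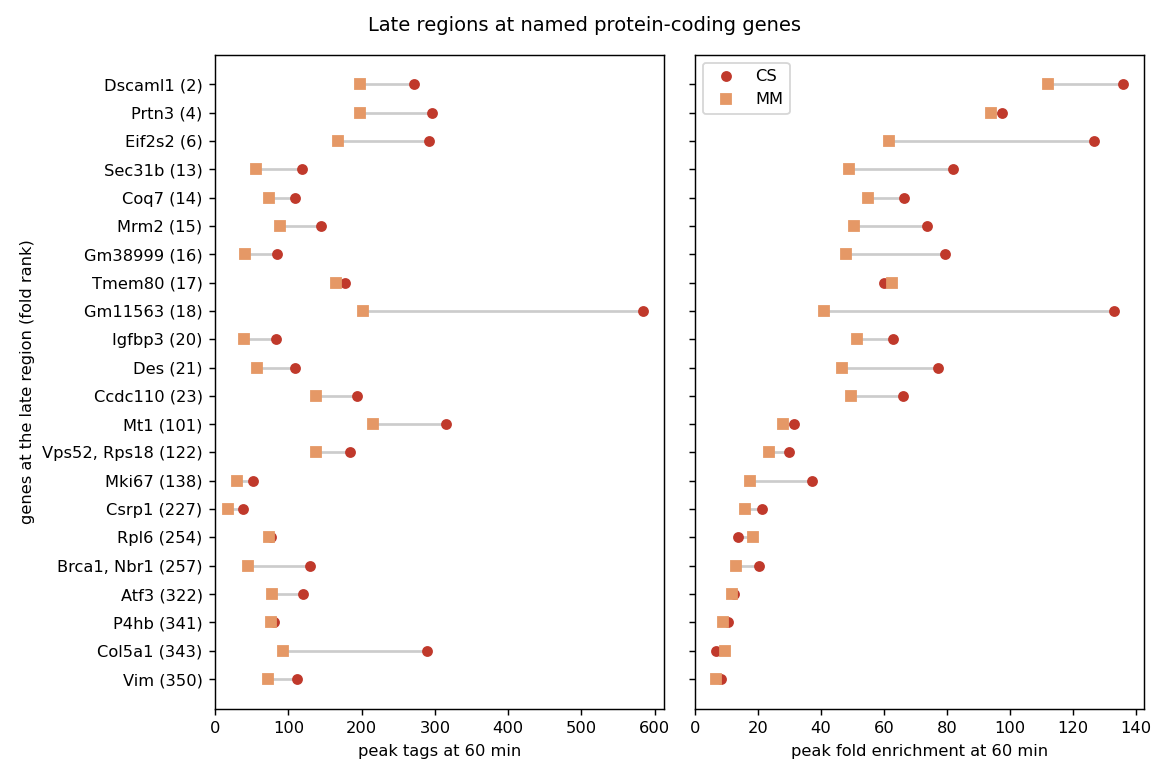
CS (circles) and MM (squares) peak tags (left) and fold enrichment (right) at 60 min of the late gene-end regions named for their folds or through the gene lists, ordered by fold rank among the 350 members (1 is the highest), which stands in brackets. Gm11563 had 584 CS tags, and folds range from 136 for CS at Dscaml1 to 6.53 for CS at Col5a1, while tags do not follow the same order.

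Late regions were found at the ends of 274 protein-coding genes, 1.25% of the 21887 annotated. Among 17 gene lists of 475 genes, 12 genes had a late region, and 8 lists had none. The cytosolic chaperone and cochaperone list had 0 of 46 genes with a late region. At 12 min, 31 of the 46 had a region at an end, against 1.51% of all protein-coding genes. This covers the listed genes only. Rpap3 and Unc45b, which are not on the list, had late regions of 161 CS and 150 MM tags and of 45 and 34 tags. The CS peak at Unc45b had a deposited false discovery rate of 11.8%. The TRiC chaperonin and prefoldin list had 0 of 14 against 8 at 12 min, and the mitochondrial chaperone list 0 of 16 against 3 at 12 min. At 60 min a region of any kind was at an end of 30 of the 46 cytosolic, 8 of the 14 and 3 of the 16 genes. A gene with a 12 min region at its end can have a late one only at another place, so the chaperone counts are in part set by the rule. The proteasome, RNA polymerase II, apoptosis and inflammation, heat shock factor and other-cell-type lists also had none.

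Genes of the extracellular matrix and intermediate filaments had a late region at 3 of 28 genes, or 10.7%, against 1.25% of all protein-coding genes. None of the 28 had a 12 min region at an end, against 1.51% of all. Among the 3 were Col5a1, a fibrillar collagen chain, and Vim, the intermediate filament protein of fibroblasts. Col5a1 had 289 CS and 92 MM tags spread over 5369 bp, with folds of 6.53 and 9.42, and the HSF1KO 60 min CS list had a peak of 7 tags in it. Vim had 111 and 72 tags, the lowest mean rank of fold of all 350 regions at 8.22 and 6.58, and an HSF1KO 60 min CS peak of 7 tags as well. Both regions were therefore among those of lowest fold, and in both the CS antibody also gave a peak in cells that lack HSF1. The deposited false discovery rates were 24.07% for CS and 20.2% for MM at Vim, and 12.4% and 0.47% at Col5a1.

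Other listed genes were bound one by one. Mt1, a metallothionein that binds heavy metals, had 315 CS and 215 MM tags and folds of 31.4 and 28.0, 568 bp from its start. Atf3, a stress-induced transcription factor, had 120 and 77 tags and folds of 12.3 and 11.7, with the summit 94 bp from the start. P4hb, the protein disulfide isomerase of the endoplasmic reticulum, had 80 and 76 tags and folds of 10.5 and 8.77. Of these regions only that of Mt1 was in the upper part of the fold order, at rank 101.

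Csrp1, a LIM-domain protein of actin filaments, had 38 CS and 17 MM tags at its start, and a separate late region of 38 and 20 tags 74 bp from its other end. Deposited false discovery rates at Csrp1 were 1.28% for CS and 6.79% for MM at the start, and 7.44% and 6.28% at the other end. Nbr1, an autophagy receptor, shared its region with Brca1, a DNA repair gene on the opposite strand, with 130 and 45 tags. Rps18 shared its region with Vps52, a gene of retrograde membrane traffic, with 184 and 138 tags and folds of 29.7 and 23.6. Rpl6, a large-subunit ribosomal protein gene, had 76 and 74 tags, and Mki67, a marker of proliferating cells, had 52 and 30 tags. In all, 36 late regions lay at the ends of 2 or more protein-coding genes, and 21 had starts on both strands within 1 kb, so the region cannot be given to either gene.

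Noncoding genes held some of the strongest late regions. The nearest gene end belonged to a long noncoding RNA in 96 of the 350 regions (27.4%), to a protein-coding gene in 231 (66.0%) and to a pseudogene or small RNA gene in 23. For scale, 21887 of the 49943 annotated genes were protein-coding. A protein-coding gene end lay within 1 kb of 240 of the 350 regions (68.6%) and of 244 of the 323 over a 12 min region (75.5%). The highest combined fold rank of all was at the long noncoding RNA Gm40288, with 248 CS and 192 MM tags and folds of 148 and 137, 151 bp from a gene end. The long noncoding RNA 4930413E20Rik had 230 and 123 tags and folds of 124 and 125. Gm31475, also a long noncoding RNA, had 434 and 284 tags. These 3 regions had no protein-coding gene end within 1 kb, which was so for 110 of the 350.

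The 350 late gene-end regions were weaker than the 323 gene-end regions of 60 min that lay over a 12 min region. Both groups were formed by peaks of the same wild type CS and MM lists, so the values only describe them. How far the rule itself sets the difference was not tested. The median CS tag count was 76 in late regions, ranging from 27 to 584, and 207 in the regions over a 12 min region. The median MM tag count was 43 in late regions, ranging from 11 to 284, and 119 in the others. Median folds were 26.0 for CS and 18.9 for MM in late regions, against 46.7 and 37.5. The tag counts of the groups overlapped widely, as the plot of CS against MM values shows. Peaks of both antibodies reached a p of 1e-10 or less in 130 of 350 late regions (37.1%, 32.1% to 42.4%) and in 271 of 323 others (83.9%, 79.4% to 87.7%). Both had a deposited false discovery rate of 5% or less in 269 of 350 late regions (76.9%, 72.1% to 81.2%). The same held for 315 of 323 others (97.5%, 95.2% to 98.9%).

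**Figure D2:**
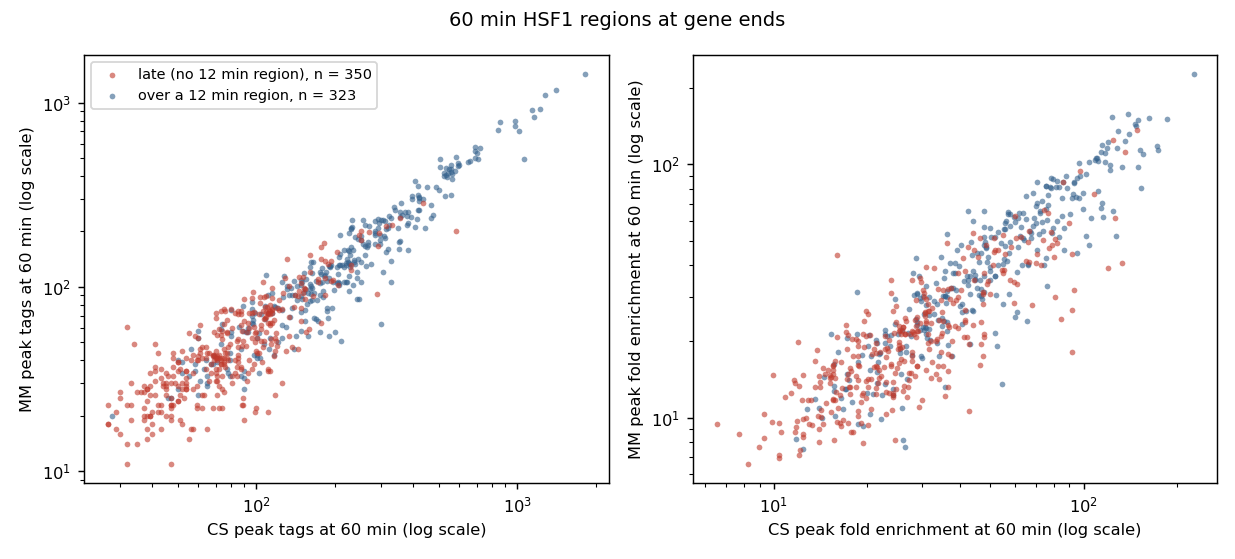
Peak tags (left) and fold enrichment (right) of CS against MM at 60 min, on log axes, for each of the 350 late gene-end regions (red) and the 323 gene-end regions over a 12 min region (blue). Late regions fill the lower part of both plots, with a median of 76 CS tags against 207, and overlap with the others in the middle.

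The 2 antibodies ranked the late regions alike but less tightly than the others. Spearman's rho between CS and MM tags was 0.80 over the 350 late regions and 0.94 over the 323 others, as a description of regions that share libraries and IgG control. The summits of the 2 antibodies lay a median of 25 bp apart in late regions and 16 bp in the others. Late regions had a median length of 1060 bp, against 1518 bp. At gene ends the late regions had medians of 76 CS and 43 MM tags, against 63 and 31 in late regions away from gene ends, and 37.1% against 33.9% reached a p of 1e-10 or less with both antibodies. Median folds ran the other way, at 26.0 for CS and 18.9 for MM at gene ends, against 32.0 and 21.3 away from them.

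Late regions at protein-coding genes of known strand lay mostly at starts, less exclusively than the others. The strand of the nearest protein-coding gene was known for 195 late regions, and in 164 of them (84.1%, 78.2% to 88.9%) the nearer end was the start. In the regions over a 12 min region it was 184 of 195 (94.4%, 90.1% to 97.2%), and the intervals did not overlap. Prtn3, Coq7 and Mrm2 were among the 31 late regions nearer to a 3′ end. At starts, the summit fell before the start in 76 of 164 late regions (46.3%) and 83 of 184 others (45.1%). It lay within 250 bp in 66 of 164 (40.2%, 32.7% to 48.2%) against 91 of 184 (49.5%, 42.0% to 56.9%), with overlapping intervals.

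**Figure D3:**
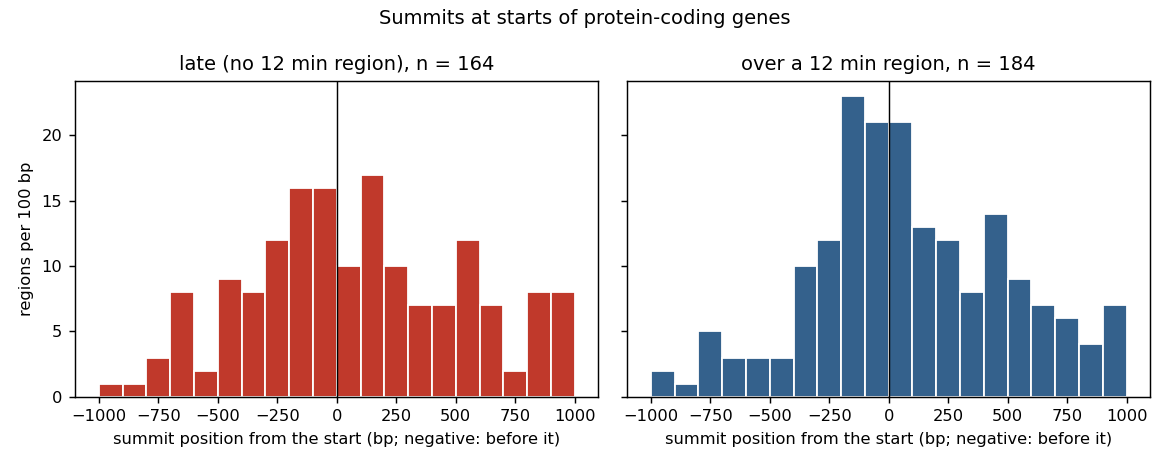
Number of regions per 100 bp by the position of the summit from the start of the nearest protein-coding gene, in bp with negative values before the start, for 164 late regions (left) and 184 regions over a 12 min region (right). Late summits spread more evenly over the 2 kb, with a median distance of 312.5 bp against 259.5 bp.

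The share of late regions at gene ends, 15.8%, was below the 323 of 1231 for regions over a 12 min region (26.2%, 23.8% to 28.8%). For scale, 6.16% of the annotated span of chromosomes 1 to 19 and X lies within 1 kb of a gene end. The late gene-end regions lay on 20 chromosomes, with most on chromosomes 9 (33) and 11 (30). At the limit of 1 kb, Poc1a, a centriole gene, was just inside at 987 bp with 44 CS and 29 MM tags, as was Ankrd60 at 980 bp with 57 and 28 tags. Gm42015 was just outside at 1006 bp with 43 and 16 tags, as was Btg3, an antiproliferative gene, at 1011 bp with 134 and 86 tags.

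The shares of late regions and of regions over a 12 min region with the 3-unit element lay close together, within wide intervals. Of regions with a summit in a window, 14 of 68 late ones (20.6%, 11.7% to 32.1%) and 17 of 87 others (19.5%, 11.8% to 29.4%) had it in a window. Counted by window, it was in 16 of 84 late windows (19.05%, 11.3% to 29.1%) and 22 of 103 others (21.4%, 13.9% to 30.5%), against 0.603% of all 32851 promoter windows. The 2-unit run was present in 35 of 68 late regions (51.5%, 39.0% to 63.8%) and 60 of 87 others (69.0%, 58.1% to 78.5%), with overlapping intervals. By window it was in 51.2% of late windows and 68.9% of the others, against 15.1% of all windows. The centre of the 3-unit match lay a median of 9.5 bp from the late summit, as for Deaf1 and Rps18 above, and 13 of 14 lay within 50 bp. For the 2-unit run the median was 11.5 bp, with 29 of 35 within 50 bp. By the longest run in a window, 33 late regions held no more than 1 unit, 21 held 2, 13 held 3 and 1 held 4. All 14 late regions with a 3-unit match were among the 60 of 68 with no HSF1KO peak at any time, and among the 54 in which both antibodies had a deposited false discovery rate of 5% or less.

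**Figure D4:**
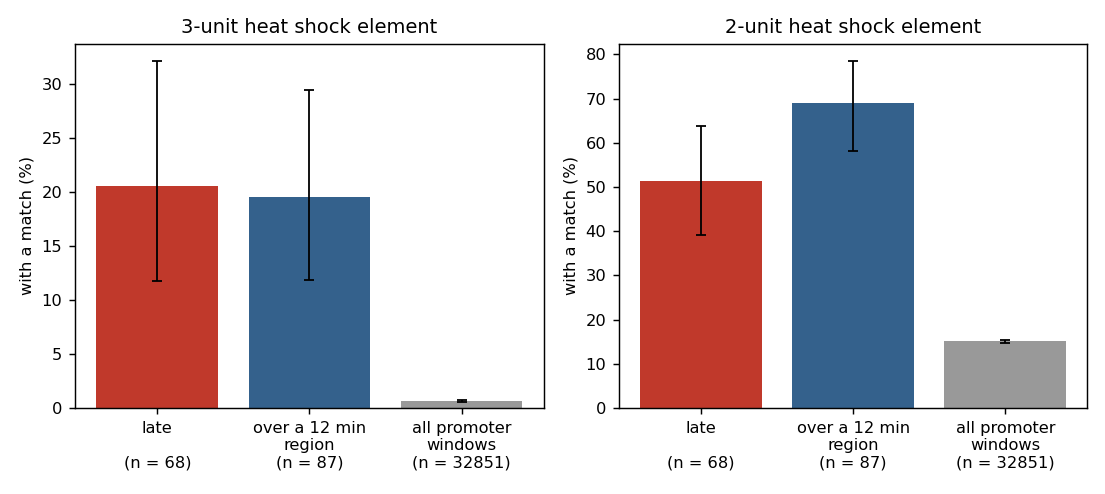
Share with a 3-unit (left) or 2-unit (right) heat shock element, in percent. Red and blue are regions whose summit lies in a promoter window, counted once each (68 late gene-end regions and 87 gene-end regions over a 12 min region), and grey is all 32851 windows, counted by window. Bars give the share and lines the 95% exact interval. Both groups of regions stand above all windows, and their intervals overlap with each other.

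Other short motifs, searched on both strands, were counted over the same 84 late windows, 103 windows of the others and all 32851 windows. The GC box GGGCGG was in 52.4% of late windows and 68.9% of the others, against 35.7% of all. CCAAT was in 21 of 84 late windows and 36 of 103 others, against 37.4% of all. The AP-1 motif TGANTCA was in 10.7% and 9.71%, against 7.81% of all, and TATAAA in 5.95% and 7.77%, against 13.6% of all. The cyclic AMP response element TGACGTCA was in 1.19% and 4.85%, against 1.79% of all. Median GC content over these windows was 55.3% in late windows, 60.3% in the others and 52.7% in all, so windows differ in base composition as well.

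Late regions were split into 4 groups of 87 or 88 by mean fold rank, and the upper 3 were pooled against the lowest. From the highest group to the lowest, regions with a summit in a window numbered 16, 16, 13 and 23. Of these, 4, 5, 4 and 1 had the 3-unit element. A protein-coding gene end was within 1 kb in 54, 45, 63 and 78 regions of the groups. Neither count rose or fell in step with the fold rank. In the upper 3 groups, 13 of 45 regions with a summit in a window had the 3-unit element (28.9%, 16.4% to 44.3%), against 1 of 23 in the lowest group (4.35%, 0.110% to 21.9%). The intervals overlap. A protein-coding gene end was within 1 kb in 162 of 262 regions of the upper groups (61.8%, 55.7% to 67.7%) and in 78 of 88 of the lowest (88.6%, 80.1% to 94.4%). The lowest group held P4hb, Atf3, Col5a1 and Vim, and its median length was 1339.5 bp against 996 bp in the highest. Median tag counts from the highest to the lowest group were 111, 74.5, 64 and 73 for CS and 57, 42.5, 31 and 40 for MM, so tags were highest in the first group and did not fall in step with the folds after it.

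The HSF1KO lists give peaks that each antibody yields without HSF1. An HSF1KO 60 min peak of either antibody overlapped 16 of the 350 late gene-end regions (4.57%, 2.64% to 7.32%), against 3.33% of all 60 min regions, 36 of 323 regions over a 12 min region (11.1%, 7.93% to 15.1%) and 31 of 1871 late regions away from gene ends (1.66%, 1.13% to 2.34%). These knockout peaks held 5 to 7 tags each. By fold rank, 10 of the 16 were in the lowest of the 4 groups, which is 11.4% of its 88 regions (5.59% to 19.9%). The upper groups held 2 each, or 6 of 262 (2.29%, 0.845% to 4.92%). Besides Col5a1 and Vim the 16 regions included Mrm2, Edrf1, a gene named for erythroid differentiation, and Gm15867 and Gm38621 with 5 tags each, and Nhlrc4 with 6 MM tags. At any time, 45 late gene-end regions (12.9%, 9.53% to 16.8%) had an HSF1KO peak, against 8.86% of all 60 min regions.

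**Figure D5:**
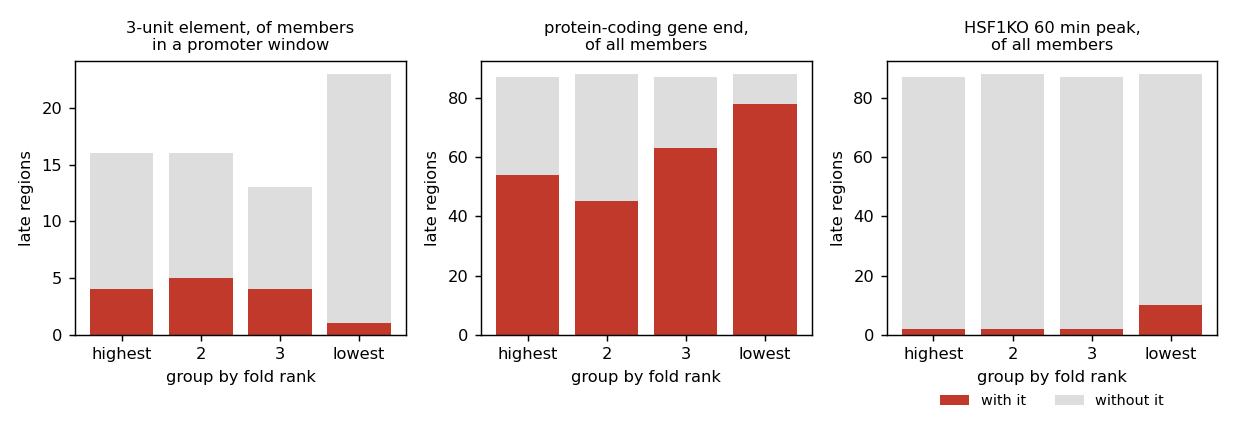
Number of late gene-end regions in each of 4 groups by mean fold rank (highest to lowest) with (red) and without (grey) a 3-unit element among those with a summit in a promoter window (left), a protein-coding gene end within 1 kb (middle) and an HSF1KO 60 min peak (right). The lowest group had 1 of 23 such regions with the element, 78 of 88 regions at protein-coding genes and 10 of 88 with an HSF1KO peak.

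Some late regions already had a 12 min peak of 1 of the antibodies. Of the 350, 77 (22.0%, 17.8% to 26.7%) overlapped a 12 min peak of a single antibody, 31 of CS and 46 of MM, against 14.9% of all late regions and 255 of the 1871 away from gene ends (13.6%, 12.1% to 15.3%). Their 12 min peaks held a median of 56 tags for CS and 31.5 for MM, against medians of 67 and 38 over all 12 min peaks. The deposited score, which rises as p falls, had a median of 55.3 for these CS peaks, ranging from 40.4 to 87.8. For the MM peaks the median score was 49.3, ranging from 40.3 to 110. The lowest scores lay just above the p cutoff of 1e-04, and both medians were nearer to the lowest score than to the highest. Gm11563 had a 12 min CS peak of 90 tags, and Atad2, a chromatin-binding ATPase gene with 332 CS and 216 MM tags at 60 min, one of 173 tags. The region of Vps52 and Rps18 had a 12 min MM peak of 77 tags, and that of Gm3435 and Gm3448, with 355 and 238 tags at 60 min, one of 139 tags. The region of Gm3435 and Gm3448 also overlapped an HSF1KO peak of 15 tags, at 12 min or unstressed. That was the highest knockout tag count of the 350. For 273 late gene-end regions neither antibody had a 12 min peak, among them Dscaml1, Prtn3, Eif2s2 and Mt1.

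The shares of late regions near a 12 min region differed little between gene ends and other places. The nearest 12 min region lay within 10 kb of 17 of the 350 (4.86%) and of 92 of the 1871 late regions away from gene ends (4.92%), and within 100 kb of 25.7% and 25.1%. Of the 274 protein-coding genes with a late region, 2 had a 12 min region at an end (0.730%, 0.0885% to 2.61%), against 1.51% of all protein-coding genes. Another 10 had one only inside (3.65%, 1.76% to 6.61%), against 2.17% of all. Both intervals include the share of all genes, and the rule removes overlap with 12 min regions. Plin3, a lipid droplet protein gene, had its late region of 117 CS and 66 MM tags near the 3′ end and a 12 min region of 86 and 69 tags near the start, 10412 bp apart. Xirp1, which encodes an actin-binding protein of striated muscle, had a late region of 36 and 27 tags and a 12 min region of 66 and 46 tags, at a gene whose strand is not known.

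No late gene-end region overlapped an SRF peak at any time. This was 0 of 350, which allows a share of up to 0.857% by the limit of 3 counts of the total (the exact interval reaches 1.05%), against 0.637% of all 60 min regions and 5 of the 323 over a 12 min region. Atf3 and Csrp1, whose genes are on the lists of early response and actin genes, are thus late regions with no SRF peak in them. The SRF libraries held 0.751, 1.55 and 0.949 M tags before and after 12 and 60 min, and their lists 64, 68 and 18 peaks. What SRF signal these libraries could detect was not tested.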

How the data were processed

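ChIP-seq peak lists of 15 samples were used; the nascent RNA, IgG and input samples were not analysed here. Per the file headers, the authors called CS and MM peaks by MACS 1.4.2 with the p cutoff set to 1e-04, keeping at most 1 tag per position. Wild type files were named as 2 merged replicates and had an IgG control; HSF1KO files had no control and named no merge. The SRF lists came from MACS 2.0.9 with an IgG control, also per the file headers. Positions were on mm10, per the labels, and an aligner is not given in the sources consulted. Per the file headers, a deposited CS or MM peak has a tag count, a score (the negative log10 of p, times 10), a ratio of tags to background (fold enrichment) and, with a control, an FDR in percent. An SRF peak has a deposited pileup signal, a −log10 p-value, a −log10 q-value and a fold. Peak values were not compared between lists, except where tags are named with their list.

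From these, regions were built from CS and MM peaks overlapping by at least 1 bp with Python 3.11.15 (pandas 2.3.3, scipy 1.17.1); the summit is midway between the summits of the most tagged CS peak and the most tagged MM peak. Gene ends came from 49943 RefSeq genes of GRCm38.p6, and strand, sequences and motif shares from 32851 RefSeq promoter windows of 300 bases, which cover 27025 genes. No window was present for chromosome 18, so its 9 members had no strand or sequence here. Of the 274 protein-coding genes with a late region, 227 had a window. The code was tested on simulated peaks with known answers. Named genes were the 12 protein-coding members of best fold rank, up to 4 per gene list, the 5 with most CS tags, those next to the 1 kb limit, up to 5 with an HSF1KO 60 min peak and those with a 12 min region at another end. The values of 1 gene named by this rule are not reported here. Members and lists were chosen with earlier results of these data known. Alternatives changed the overlap, peak threshold, end distance, gene set, 12 min rule, HSF1KO overlap and motif length.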

Additional observations from a re-analysis of the deposited data

How the results depend on the processing

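Of 63 values under 9 alternatives, 46 stayed within the limits set for a change and 17 moved. With 60 min peaks of p 1e-10 or less there were 131 late gene-end regions at 96 protein-coding genes, 27.5% had a 12 min peak of 1 antibody, and the share with an HSF1KO 60 min peak fell to 1.53%. With a limit of 500 bp there were 223 regions (10.04% of late regions) at 169 genes. Of the 124 at a protein-coding gene of known strand, 90.3% were nearer to a start. With 5 kb there were 885 (39.8%) at 686 genes, and 1 had an SRF peak. Of the 454 at a protein-coding gene of known strand, 73.1% were nearer to a start. With protein-coding genes only, 10.8% of late regions were at a gene end. With an overlap of 50% of both peaks, 27.3% had a 12 min peak of 1 antibody and 1 had an SRF peak. The shorter 2-unit element was in 51.5% of the regions with a summit in a promoter window. Each setting changed the peaks, distances, genes or motif that were counted, and why values moved was not tested. The 3-unit share lay between 17.6% and 25.9% under the other settings. Strand was known only for genes with a promoter window, and most members have no sequence here, which limits the start and motif shares. No paired analysis was possible because each genotype, time and antibody had 1 peak list.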
